A study of Mus musculus with 12 samples.

Results

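Vitamin A handling in the cerebral vessels was followed here through 9 genes, Rbp4, Stra6, Adh1, Rdh10, Aldh1a1, Aldh1a2, Crabp2, Cyp26b1 and Rarb. They were listed by function, as genes of retinol transport, oxidation, breakdown and response, out of 54119 genes in the libraries, and 3 of them (Adh1, Rbp4 and Cyp26b1) were selected on their lower level after LPS in these same libraries. For those 3 genes the values are a description and carry no test. The other 6 genes were tested in a model fitted across all genes, although earlier results of these data were known when they were listed. All 9 passed the filter on low counts, as did 19150 genes in all.

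The study asked how soon systemic inflammation reaches the vasculature of the brain. Wild type C57BL6 mice aged 2 to 3 months received lipopolysaccharide (LPS, a component of bacterial cell walls, from E. coli) at 10 mg/kg or PBS into the peritoneum, and RNA was sequenced from the vessels of the forebrain. Vessels were taken from PBS mice, or at 4 h, 30 min or 15 min of LPS, with 3 libraries in each of these 4 groups, and every library held vessels pooled from 1 male and 1 female mouse. Mice were perfused with cold PBS, the meninges were removed, and vessels were collected on a mesh after homogenization and a dextran spin, so the material is a mixture of all cells that stay on a vessel. The time of day and the time at which PBS mice were killed are not given in the sources used here.

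As background, retinol leaves the liver on the plasma carrier RBP4, which travels bound to transthyretin (the product of Ttr), and enters cells through the receptor STRA6. Inside the cell, dehydrogenases such as RDH10 and ADH1 oxidize retinol to retinal, and the aldehyde dehydrogenases ALDH1A1 and ALDH1A2 oxidize retinal to retinoic acid. CRABP2 carries retinoic acid to nuclear receptors such as RARB, and CYP26B1 degrades it. In the brain, the meninges and the fibroblasts that accompany larger vessels are known sources of retinoic acid, and the choroid plexus, the epithelium that makes cerebrospinal fluid, is rich in Ttr.

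The libraries held 18309176 to 25882028 estimated fragments. Levels are given as CPM, counts relative to library depth, scaled by the trimmed mean of M values (TMM), and fold changes on the log2 scale with their standard error (SE). A gene was called when its change exceeded 1.5-fold at an adjusted p below 0.05. The 3 comparisons with PBS share the same 3 PBS libraries. The TMM factors were 1.16 to 1.17 in PBS and 0.715 to 0.718 at 4 h, and scaling by library size alone moved the median log2 fold change of all genes at 4 h from -0.01 to -0.71. The libraries held the genes that define vessels. The summed level of 8 endothelial markers was 10980 to 11290 CPM in PBS.

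Sequences are shown for alternative starts of Stra6 and for a retinoic acid response element at Rarb. RefSeq promoter windows (GRCm38.p6, 250 bases before each start) matched 7 of the 9 genes in 12 windows. Crabp2 and Rdh10 had no window. The Stra6 stretches are shown because transcripts from these 2 starts gained unequally at 4 h. They lie on the plus strand, at chr9:58128838-58129087, which ends at the first base before Stra6-202, and at chr9:58133825-58134016, which ends 58 bases before the start of Stra6-214, where an exon of another transcript begins.
Stra6-202: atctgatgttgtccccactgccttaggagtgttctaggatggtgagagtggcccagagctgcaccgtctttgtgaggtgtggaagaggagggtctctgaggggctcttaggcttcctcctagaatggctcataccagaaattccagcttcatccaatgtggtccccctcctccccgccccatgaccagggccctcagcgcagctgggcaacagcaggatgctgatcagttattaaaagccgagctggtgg
Stra6-214: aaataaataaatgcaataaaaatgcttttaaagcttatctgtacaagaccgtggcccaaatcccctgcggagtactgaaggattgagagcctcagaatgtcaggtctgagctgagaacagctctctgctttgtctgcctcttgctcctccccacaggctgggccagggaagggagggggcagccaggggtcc
No part of either is in capitals, because none of the motifs searched was found there on either strand. The motifs were the direct repeat of 2 retinoid receptor hexamers with a spacer of 5 or 2 bases, the NF-kB site, TATAA, the STAT site TTCNNNGAA and the AP-1 site TGANTCA. Of 32851 windows, 3.9% held the NF-kB site, 22.8% TATAA, 7.02% the STAT site and 6.75% the AP-1 site. Their lack in these windows says nothing about the factors.

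The site at Rarb is shown because it is the retinoic acid response element for which this gene is known, and its capitals mark the direct repeat. It lies on the minus strand at chr14:16575507-16575535, inside the first exon of Rarb-201, which carried 97.5% to 100% of Rarb fragments in PBS.
Rarb: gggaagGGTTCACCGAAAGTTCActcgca
A repeat with this spacing stood in 29 of 32851 windows (0.0883%). The Rarb window was the one window among the 12 with this repeat, and none of the 12 held the repeat with the spacing of 2 bases, which 0.174% of all windows held. The repeat at Rarb overlaps a STAT site. A site of this kind is a description of the sequence, and its use was not measured.

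Of the 6 genes not selected on their fall, Aldh1a2 and Crabp2 were called at 15 min, both lower than in PBS, where 0.872% of all genes were called lower. At 30 min 0 of the 6 were called by edgeR, DESeq2 or limma. Of the 6, 0 had an unadjusted p below 0.05 against the 1.5-fold limit. Without that limit edgeR called 3 of the 6, where it called 7066 of all 19150 genes. At 4 h Stra6 and Rdh10 rose, where 19.0% of all genes were called higher, and Crabp2, Rarb and Aldh1a1 fell, where 13.8% were called lower. The medians of the 6 genes were -0.26, 0.15 and -0.32 (log2 fold change) at the 3 times, beside medians of all genes within 0.01 of 0. The 3 selected genes passed the same limit at 15 min and at 4 h, and Adh1 and Cyp26b1 passed it at 30 min, where 0.799% of all genes were called lower. Nothing is read from their calls, since they were chosen for that direction.

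**Figure D1:**
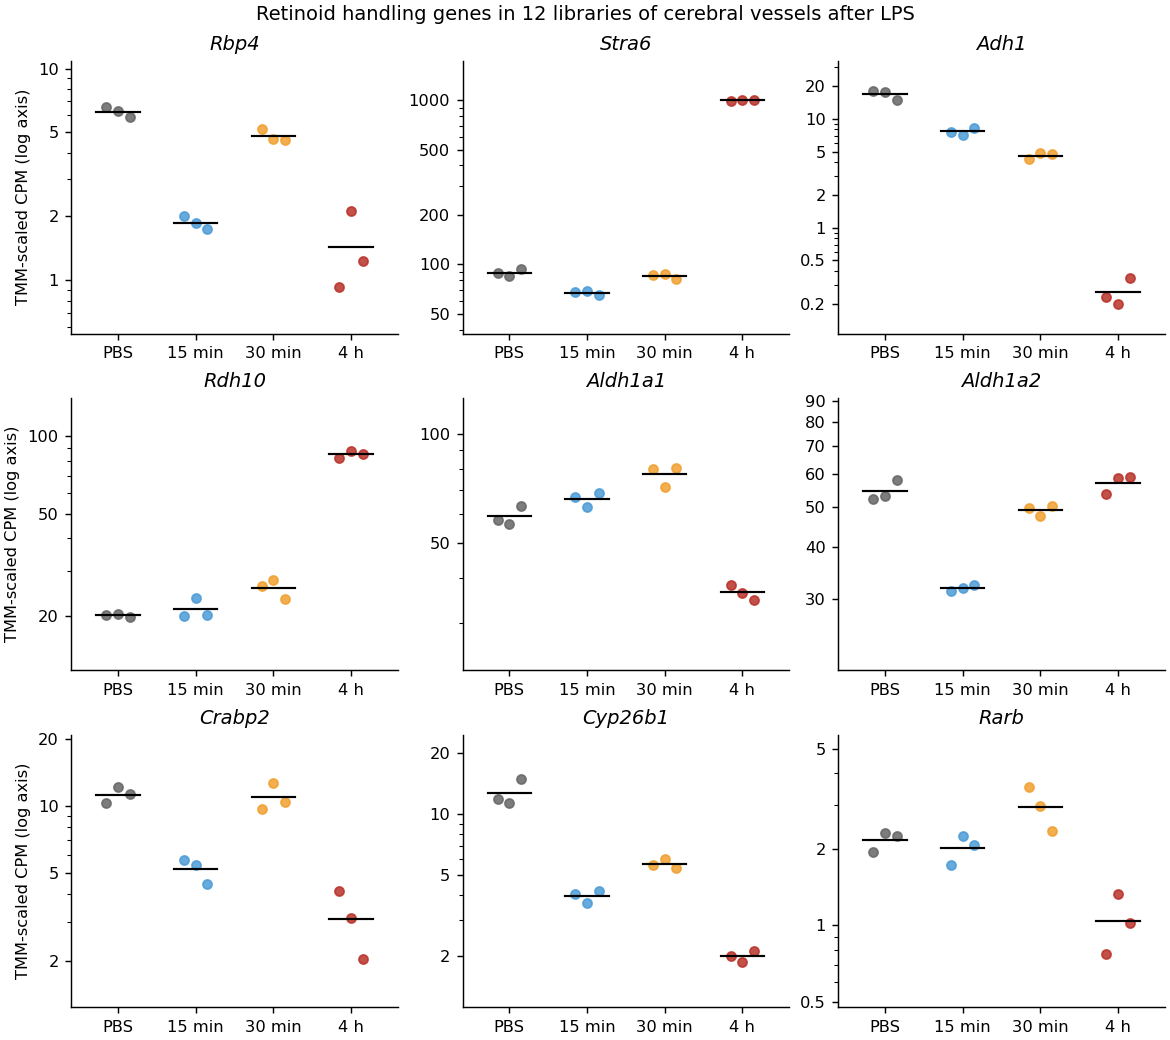
TMM-scaled CPM (log axis) of the 9 retinoid handling genes in the 12 libraries, by group. Each point is a library and each bar is the mean of 3 libraries. Stra6 and Rdh10 stood highest at 4 h, and Adh1 was between 0.200 and 0.342 CPM there against 15.1 to 18.1 CPM in PBS.

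Among the genes of transport and uptake, Stra6 gave the largest rise of the 9. Stra6 (ENSMUSG00000032327, chr9:58063788-58153996), the membrane receptor for RBP4, was at 88.6, 84.7 and 93.8 CPM in the PBS libraries and at 990.0, 1001 and 1005 CPM at 4 h. The 4 h libraries all lay above every other library. At 15 min Stra6 was at 67.8, 68.5 and 65.1 CPM, and at 30 min it was at 86.5, 86.7 and 81.7 CPM. The 15 min libraries lay below the PBS libraries, and those at 30 min overlapped them. The log2 fold change of Stra6 at 4 h was 3.49 ± 0.03 (SE, n = 3 against 3, adjusted p = 1.41e-27), an 11.2-fold rise. At 15 min the difference of -0.41 ± 0.04 did not pass the 1.5-fold limit (adjusted p = 1).

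Rbp4 (ENSMUSG00000024990, chr19:38116629-38125281), the plasma carrier of retinol, was at 6.56, 6.31 and 5.88 CPM in PBS. It was at 2.00, 1.87 and 1.74 CPM at 15 min. It returned to 5.20, 4.65 and 4.604 CPM at 30 min, and it was at 0.925, 2.13 and 1.23 CPM at 4 h. The course was thus down, up and down, and in each LPS group the libraries lay below those of PBS. The log2 differences from PBS were -1.74 ± 0.19 at 15 min, -0.37 ± 0.18 at 30 min and -2.11 ± 0.22 at 4 h (SE). The 4 h value rests on 12, 32 and 18 counts, and without replicate 2 of 4 h the value was -2.52.

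Adh1 (ENSMUSG00000074207, chr3:138260991-138290698), an alcohol dehydrogenase that oxidizes retinol, showed the deepest loss of the 9. It was at 18.1, 17.7 and 15.1 CPM in PBS, at 7.63, 7.14 and 8.27 CPM at 15 min and at 4.25, 4.82 and 4.74 CPM at 30 min. At 4 h it was at 0.231, 0.200 and 0.342 CPM, which stood for 3, 3 and 5 counts. Every step was downward, with no overlap between any of the 4 groups. The log2 differences from PBS were -1.14 ± 0.12, -1.88 ± 0.13 and -6.01 ± 0.22 at the 3 times.

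Rdh10 (ENSMUSG00000025921, chr1:16105774-16133734), the retinol dehydrogenase that limits retinoic acid production in the embryo, went the other way. It was at 20.2, 20.4 and 19.9 CPM in PBS and at 82.4, 87.2 and 85.1 CPM at 4 h. No library at 4 h came near those of another group. The rise was 2.08 ± 0.07 on the log2 scale (adjusted p = 3.2e-16), or 4.22-fold. At 15 min Rdh10 was at 20.0, 23.5 and 20.2 CPM and at 30 min at 26.1, 27.6 and 23.2 CPM. The log2 differences then were 0.07 ± 0.07 and 0.35 ± 0.07, neither past the limit.

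Both retinol oxidizing genes can be set beside each other only in TPM, which is scaled for transcript length and depth, and within a group. In PBS the mean level of Adh1 was 21.4 ± 2.2 TPM and that of Rdh10 10.4 ± 0.4 TPM (SD, n = 3). At 4 h Adh1 was at 0.213 ± 0.019 TPM and Rdh10 at 23.3 ± 0.7 TPM. Adh1 stood above Rdh10 in every PBS library and below it in every LPS library.

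Of the enzymes that oxidize retinal, Aldh1a2 (ENSMUSG00000013584, chr9:71215789-71296243) was called lower than PBS at 15 min alone. Its level was 52.3, 53.0 and 57.9 CPM in PBS and 31.2, 31.8 and 32.3 CPM at 15 min. It was 49.7, 47.6 and 50.2 CPM at 30 min and 53.6, 58.5 and 59.0 CPM at 4 h. The 15 min libraries were the low ones, and those at 4 h overlapped PBS. The fall at 15 min was -0.77 ± 0.05 (log2, adjusted p = 0.00506), and without PBS replicate 3 it was -0.73 (adjusted p = 0.0522). The difference at 4 h was 0.07 ± 0.05, with a 95% interval from -0.03 to 0.17, and scaling by library size alone turned it to -0.63. Between 15 min and 30 min the level was higher by 0.63 ± 0.05, which did not pass the 1.5-fold limit (adjusted p = 0.745).

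Aldh1a1 (ENSMUSG00000053279, chr19:20492715-20643465) was at 57.9, 56.2 and 63.2 CPM in PBS and at 38.2, 36.3 and 34.7 CPM at 4 h. At 15 min it was at 66.6, 62.5 and 68.3 CPM and at 30 min at 79.97, 71.3 and 80.3 CPM. The 4 h libraries were below all others, and those of 30 min were above all others. The fall at 4 h was small, -0.70 ± 0.06 (log2, adjusted p = 0.0353). It missed the threshold without PBS replicate 3 (-0.65, adjusted p = 0.14), without replicate 2 of 4 h (adjusted p = 0.0648) and without replicate 3 of 4 h (adjusted p = 0.129). Between 30 min and 4 h it fell by 1.09 ± 0.06 (adjusted p = 3.34e-08).

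Crabp2 (ENSMUSG00000004885, chr3:87948666-87953376), the carrier of retinoic acid to its receptors, measured 10.3, 12.1 and 11.3 CPM in PBS and 5.70, 5.44 and 4.45 CPM at 15 min. It measured 9.67, 12.7 and 10.4 CPM at 30 min and 4.16, 3.13 and 2.05 CPM at 4 h. The course was down, up and down, as for Rbp4, and the libraries of 30 min overlapped those of PBS. The fall was -1.11 ± 0.16 at 15 min (adjusted p = 0.00994) and -1.86 ± 0.19 at 4 h (adjusted p = 3.84e-07). Against 15 min, the level at 30 min was higher by 1.07 ± 0.16 (adjusted p = 0.0168), where 2.69% of all genes were called higher. Without replicate 3 of 15 min the fall at 15 min was -1.01 (adjusted p = 0.0764) and the later rise 0.97 (adjusted p = 0.112). The rise was also lost with DESeq2 (adjusted p = 0.163), limma (0.413), an offset for transcript length (0.0561) and library size alone (0.0862). Without PBS replicate 2 the fall at 15 min gave an adjusted p of 0.053, and without replicate 2 of 30 min the rise gave 0.127.

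Cyp26b1 (ENSMUSG00000063415, chr6:84571414-84593908), a cytochrome P450 that degrades retinoic acid, measured 11.95, 11.4 and 14.9 CPM in PBS and 4.04, 3.65 and 4.19 CPM at 15 min. It measured 5.64, 6.03 and 5.45 CPM at 30 min and 2.00, 1.87 and 2.12 CPM at 4 h. All LPS libraries were below all PBS libraries, and the 4 groups did not overlap. The log2 differences from PBS were -1.68 ± 0.13, -1.16 ± 0.13 and -2.67 ± 0.16. Most fragments of Cyp26b1, 73.1% to 100% across the 12 libraries, were assigned to Cyp26b1-205, whose annotated start codon lies in exon 3 and whose coding part of 963 bases is shorter than the 1536 bases of Cyp26b1-201.

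Rarb (ENSMUSG00000017491, chr14:16430839-16819156), a retinoic acid receptor that is itself a target of retinoic acid, was the scarcest of the 9 in PBS. Its libraries held 1.95, 2.33 and 2.25 CPM in PBS and 1.73, 2.25 and 2.08 CPM at 15 min. They held 3.51, 2.97 and 2.37 CPM at 30 min and 0.771, 1.33 and 1.03 CPM at 4 h. The libraries of 4 h lay below the rest. The fall at 4 h was -1.05 ± 0.28 (log2, adjusted p = 0.048) on 10, 20 and 15 counts. This call was at the threshold, and it was lost without 1 of 5 libraries, PBS replicates 2 and 3 (adjusted p = 0.0887 and 0.0756), replicate 2 of 30 min (0.0502) and replicates 1 and 3 of 4 h (0.158 and 0.0844). Between 30 min and 4 h the fall was -1.48 ± 0.27 (adjusted p = 0.00164). In that comparison 11.8% of all genes were called lower and 16.9% higher.

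The order of the 9 genes by level changed with the time after LPS. By mean TPM in PBS the order was Stra6 (54.0), Aldh1a1 (53.3), Aldh1a2 (42.0), Crabp2 (26.1), Adh1 (21.4), Rbp4 (16.1), Rdh10 (10.4), Cyp26b1 (4.80) and Rarb (1.39). Stra6 and Aldh1a1 overlapped between libraries, and all other neighbours were apart. At 4 h the order was Stra6 (308.4), Aldh1a2 (23.4), Rdh10 (23.3), Aldh1a1 (18.8), Crabp2 (3.85), Rbp4 (1.75), Cyp26b1 (0.398), Rarb (0.304) and Adh1 (0.213). Here Aldh1a2 and Rdh10 overlapped, as did Crabp2 with Rbp4 and Cyp26b1 with Rarb. At 15 min and 30 min Aldh1a1 led with 58.5 and 57.6 TPM, above Stra6 with 40.8 and 41.8 TPM. At 15 min Crabp2 overlapped Rdh10, and at both times Cyp26b1 overlapped Rarb at the foot of the order. TPM carry no TMM scaling and are used only for the order within a group.

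The rise of Stra6 was unequal over its transcripts. GENCODE M21 gives the gene 14 transcripts, of which Stra6-202, Stra6-214 and Stra6-213 held most fragments. These 3 have the same coding part of 2010 bases and the same start codon at chr9:58135090-58135092, in exon 2. They differ in a noncoding first exon, and Stra6-202 also ends before Stra6-213 and Stra6-214 at the 3' end. Stra6-214 has 415 exonic bases that Stra6-202 lacks, of which 374 are its first exon. The first exon lies at chr9:58129088-58129150 in Stra6-202, at chr9:58134075-58134448 in Stra6-214 and at chr9:58134665-58134832 in Stra6-213. The starts of Stra6-202 and Stra6-214 are 4987 bases apart.

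In PBS, Stra6-202 was at 55.8, 51.5 and 48.1 CPM, and at 4 h it was at 439.1, 494.2 and 462.9 CPM. Stra6-214 was at 13.1, 14.6 and 11.9 CPM in PBS and at 501.9, 473.9 and 495.3 CPM at 4 h. The mean of Stra6-202 was 8.98 times that of PBS, and the mean of Stra6-214 was 37.2 times that of PBS. Stra6-213 was at 17.8, 16.9 and 32.5 CPM in PBS and at 42.8, 27.0 and 38.9 CPM at 4 h.

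As shares of the gene's fragments, Stra6-214 held 14.8%, 17.2% and 12.7% in PBS and 50.7%, 47.3% and 49.3% at 4 h. It held 24.5%, 28.1% and 17.3% at 15 min and 20.9%, 16.6% and 14.8% at 30 min. Only the 4 h libraries stood clear of the rest. The share of Stra6-202 was 58.4% ± 6.2 in PBS and 46.6% ± 2.6 at 4 h (SD, n = 3). The share of Stra6-213 was 24.9% ± 8.4 in PBS and 3.63% ± 0.84 at 4 h. Stra6-213 and Stra6-214, whose starts are 590 bases apart, together held 39.8% ± 6.6 in PBS and 52.7% ± 2.5 at 4 h. These shares are estimates without a test, since fragments from shared exons are divided by the quantifier. Stra6-214 shares 2662 exonic bases with Stra6-202 and 2703 with Stra6-213. The 37.2-fold value of Stra6-214 therefore depends on that division, also on the one between Stra6-214 and Stra6-213. Because Stra6-202 also differs from Stra6-213 and Stra6-214 at the 3' end, the shares do not measure the use of the starts alone.

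**Figure D2:**
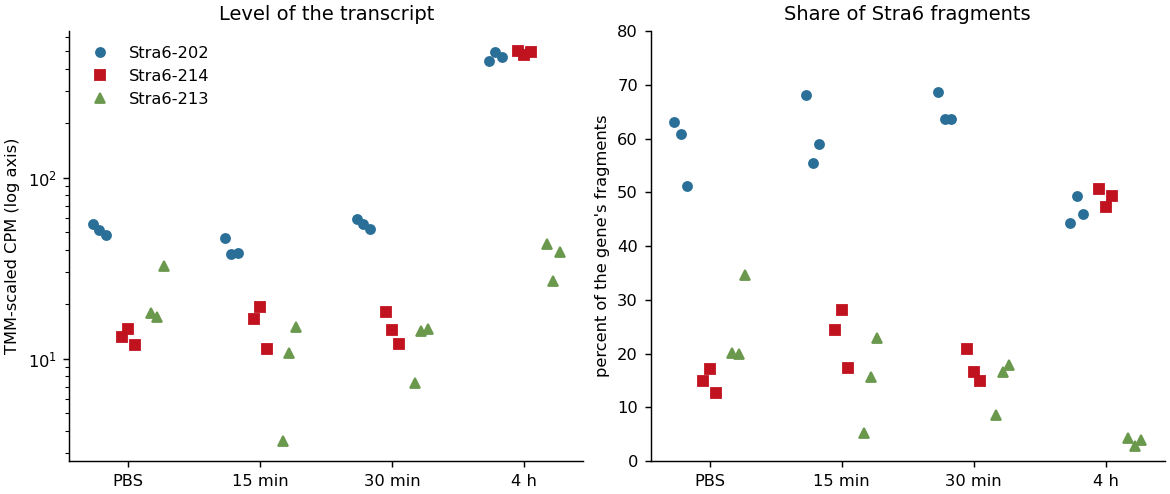
Left, TMM-scaled CPM (log axis) of 3 Stra6 transcripts in each library by group, and right, their share of the gene's fragments in percent. Each point is a library. Stra6-214 rose from 14.8%, 17.2% and 12.7% of fragments in PBS to 50.7%, 47.3% and 49.3% at 4 h.

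A list of 43 other genes of the retinoid pathway, chosen by function, gives the setting, and 31 of them were tested. At 15 min 1 of the 31 (3.2%) was called, and it was lower, against 4.18% of all genes called and 0.872% called lower. At 30 min 2 were called, both higher, against 3.78% of all genes called higher. At 4 h 12 of the 31 (38.7%) were called, against 32.8% of all genes, so the share was near the background. Of these, 4 rose and 8 fell, and with scaling by library size alone the split was 1 higher and 18 lower. At 4 h the log2 changes of the 31 genes had a median of -0.24, and those of all genes -0.01.

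Among genes of binding and uptake, 8 of 11 were tested. Ttr, the partner of RBP4 in plasma and a hallmark of the choroid plexus, was at 9995, 9885 and 10300 CPM in PBS and at 17360, 16500 and 17250 CPM at 4 h. The rise of 0.76 ± 0.02 (log2, adjusted p = 6.45e-09) shrank to 0.06 with library size alone. Lrp2, the endocytic receptor megalin, rose at 30 min by 1.71 ± 0.25 (adjusted p = 0.000704), from 1.35, 1.32 and 0.878 CPM to 3.77, 3.36 and 4.51 CPM. Rbp7, a cellular retinol binding protein, fell at 4 h by 2.55 ± 0.46 (adjusted p = 0.000277), to 0.154, 0.266 and 0.205 CPM from 1.54, 1.11 and 1.15 CPM.

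Of the redox enzymes of retinol and retinal, 9 of 11 were tested. Dhrs3, which reduces retinal back to retinol, was the gene called at 15 min. It was at 55.2, 54.3 and 54.0 CPM in PBS and at 28.4, 30.3 and 29.3 CPM at 15 min, a fall of 0.90 ± 0.05 (log2, adjusted p = 9.85e-06). It stood at 57.9, 58.7 and 62.3 CPM at 4 h. Adh5 and Adh7 fell at 4 h by 0.85 ± 0.06 (adjusted p = 6.51e-05) and 2.92 ± 0.64 (adjusted p = 0.00161), the latter from 0.675 to 1.60 CPM in PBS to 0 to 0.205 CPM.

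Among the retinal oxidizing enzymes outside the 9 genes, Aldh1a3 and Aldh1a7 were tested and both were called lower at 4 h, against 13.8% of all genes. Aldh1a3 fell by 2.48 ± 0.19 (adjusted p = 1.24e-09), from 10.4, 10.2 and 10.2 CPM to 2.39, 2.13 and 1.03 CPM. Aldh1a7, a near copy of Aldh1a1 with which it may exchange fragments, fell by 2.66 ± 0.74 (adjusted p = 0.0114). That call rested on levels under 1 CPM, and without replicate 3 of 4 h the value was -2.08 (adjusted p = 0.0646). It was lost with DESeq2 as well (adjusted p = 0.0717). Bco2, a carotenoid cleaving enzyme, fell at 4 h by 1.45 ± 0.23 (adjusted p = 0.000477). Cyp26a1 and Cyp26c1, which break down retinoic acid like Cyp26b1, were under the filter in these libraries.

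Of 5 other nuclear receptors that bind retinoids, 2 were called lower at 4 h and 1 higher, against 13.8% and 19.0% of all genes. Rarg was at 76.5, 74.5 and 75.3 CPM in PBS and at 22.9, 21.2 and 22.8 CPM at 4 h, a fall of 1.76 ± 0.05 (log2, adjusted p = 1.08e-16). Rxra, the common partner of these receptors, fell by 1.36 ± 0.07 (adjusted p = 8.6e-11), from 55.6, 50.5 and 58.6 CPM to 22.5, 20.5 and 21.4 CPM. Rara rose by 0.87 ± 0.07 (adjusted p = 0.000194), from 29.3, 34.2 and 30.0 CPM to 55.5, 56.8 and 59.0 CPM, and by 0.17 with library size alone, where the call was lost.

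Of 6 genes known as targets of retinoic acid, 4 were tested. Tgm2, a transglutaminase, was at 595.0, 614.9 and 585.8 CPM in PBS and at 3012, 2937 and 3021 CPM at 4 h, a rise of 2.32 ± 0.02 (log2, adjusted p = 6.89e-27). Nrip1, a corepressor of nuclear receptors, rose by 1.31 ± 0.07 (adjusted p = 7.3e-10) and by 0.61 with library size alone. Rarres2, the gene of the chemoattractant chemerin, rose at 30 min by 0.76 ± 0.05 (adjusted p = 0.00234). That call was lost with DESeq2 (adjusted p = 0.0715) and with library size alone (0.60). Tgm2 and Nrip1 rose at the time when Rarb was called lower.

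Of the most abundant genes of the list that were not called against PBS, Rdh5, Rxrb and Ncor1 gave log2 differences at 4 h of 0.01 ± 0.05, -0.45 ± 0.04 and -0.29 ± 0.04 in that order. Rdh5, a retinol dehydrogenase known from the eye, was at 58.2, 61.0 and 61.3 CPM in PBS and at 63.2, 60.5 and 58.7 CPM at 4 h, with overlap between the groups.

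**Figure D3:**
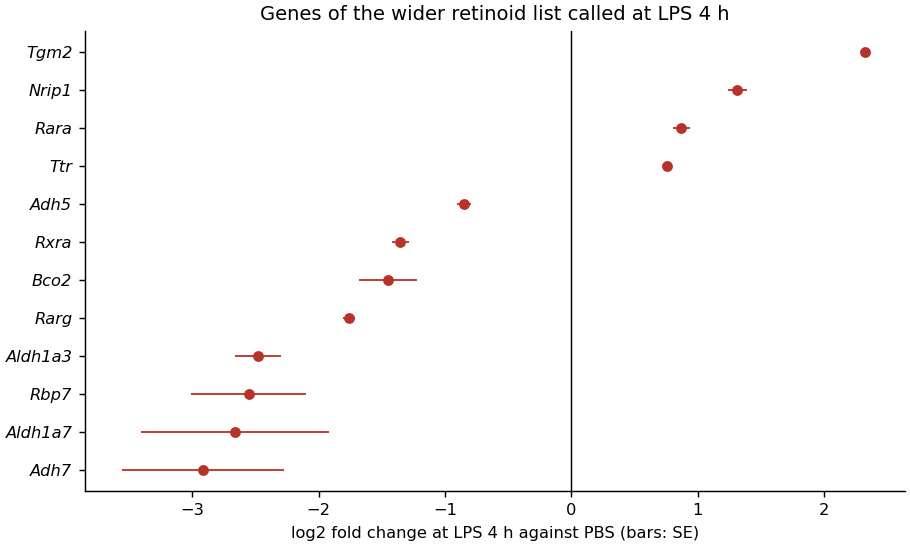
Log2 fold change at LPS 4 h against PBS of the 12 genes of the wider retinoid list that were called, ordered by value, with bars for the SE of the fit. Of these, 4 were higher and 8 lower than in PBS.

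Between the LPS times, 2 of the 31 genes of the list were called higher at 30 min than at 15 min, Lrp2 and Tgm2, where 2.69% of all genes were. The call of Tgm2 (0.68 ± 0.02) was lost with library size alone (0.54). Between 30 min and 4 h, 6 of them were called lower (Rbp7, Adh5, Aldh1a3, Aldh1a7, Rarg and Rxra) and 3 higher (Tgm2, Rara and Nrip1). These 9 genes are 29.0% of the list, near the 28.6% of all genes called in that comparison. The call of Rara there was lost with library size alone (0.49), and that of Adh5 with DESeq2 and limma. Of the 6 tested genes among the 9, Stra6 and Rdh10 rose from 30 min to 4 h by 3.56 ± 0.03 and 1.73 ± 0.07 (log2, adjusted p = 2.52e-27 and 3.4e-14), and Crabp2 fell by 1.82 ± 0.19 (adjusted p = 7.69e-07).

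Cell type markers moved together with several of these genes. In bulk vessels, fewer cells of a type and less RNA per cell cannot be told apart. The summed level of 7 meningeal markers was 7038 to 7097 CPM in PBS, 4232 to 4338 CPM at 15 min, 7933 to 8024 CPM at 30 min and 5147 to 5432 CPM at 4 h. This sum also went down, up and down, but at 30 min it lay above PBS, where Rbp4 lay below PBS and Crabp2 overlapped it. Most of that sum was Ptgds, and 1 of the 7 markers was called lower at 15 min, 1 higher at 30 min, and 3 lower and 1 higher at 4 h. The 8 fibroblast markers summed to 654.7 to 688.4 CPM in PBS, 438.5 to 457.1 CPM at 15 min, 547.3 to 555.4 CPM at 30 min and 392.0 to 408.5 CPM at 4 h, with 3, 1 and 4 of 8 called lower. The 5 smooth muscle markers went from 3037 to 3072 CPM in PBS to 2033 to 2070 CPM at 15 min, and 3 of 5 were called lower then. No marker of these 3 lists was at 0 in any group. In log2 units the sums changed at 15 min by -0.72 (meningeal), -0.58 (fibroblast) and -0.57 (smooth muscle), where Rbp4, Cyp26b1, Crabp2 and Aldh1a2 changed by -1.74, -1.68, -1.11 and -0.77. The part of these cells in the 15 min values was not tested.

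At 4 h the endothelial sum was 7785 to 7833 CPM, a log2 change of -0.51 from PBS, beside -6.01 for Adh1. Of its 8 markers, 5 were called lower and 1 higher. The sum held opposed changes from PBS to 4 h. Cldn5 went from 2362 to 475.3 CPM and Tek from 515.7 to 86.4 CPM, while Cdh5 went from 485.6 to 1889 CPM. Slc2a1 was at 2735 CPM in PBS, 5514 CPM at 30 min and 1324 CPM at 4 h. Choroid plexus markers, which include Ttr, summed to 10510 to 10950 CPM in PBS and to 17620 to 18510 CPM at 4 h. This was a change of 0.77 with 4 of 7 called higher and 1 lower, beside 3.49 for Stra6. Most of that sum was Ttr, at means of 10060 CPM in PBS and 17030 CPM at 4 h. Kcne2 went down, from 56.4 to 27.9 CPM. None of these markers was at 0. The erythroid sum went from 2165 to 2325 CPM in PBS to 6473 to 6811 CPM at 4 h, a change of 1.57 with 4 of 4 markers called higher, after 0.92 with 3 of 4 at 30 min. The astrocyte sum went from 795.5 to 819.5 CPM to 1450 to 1514 CPM (0.88, 3 of 6 called higher), and that of perivascular macrophages from 111.5 to 118.6 CPM to 177.8 to 182.8 CPM (0.66, 3 of 5 higher). The microglial sum went from 146.3 to 150.1 CPM to 91.5 to 97.5 CPM (-0.64, 3 of 6 lower). The part of these cell types in the 4 h values was not tested. All marker sums carry TMM scaling, and they were not taken with library size alone. That scaling moved the median log2 fold change of all genes at 4 h from -0.01 to -0.71. Neutrophil markers summed to 178.5 to 185.7 CPM at 4 h against 2.21 to 2.60 CPM in PBS, and neuron markers to 490.3 to 501.8 CPM at 15 min against 317.0 to 328.7 CPM. The liver is the main site of Adh1 and Rbp4 in the body, and its marker Alb was at no count in PBS and its marker Fgb at no count in PBS, 15 min and 30 min. The 7 hepatocyte markers summed to 6.57 to 6.71 CPM in PBS, most of it Cyp2e1, and to 0.771 to 2.00 CPM at 4 h. The markers other than Alb and Fgb were detected in PBS, with means of 0.190 CPM (Cps1) to 5.53 CPM (Cyp2e1). From PBS to 4 h, the means of Apoa1, Apoa2 and Serpina1b went from 0.280, 0.339 and 0.311 CPM to 0.348, 0.385 and 0.341 CPM. Alb and Fgb were at 0.129 and 0.112 CPM at 4 h, and Cps1 was at 0. Cyp2e1 measured 5.53, 4.61, 2.49 and 0.178 CPM on average in PBS and the 3 LPS groups in order of time, and the part of any such cells in the values of Adh1 and Rbp4 was not tested.

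**Figure D4:**
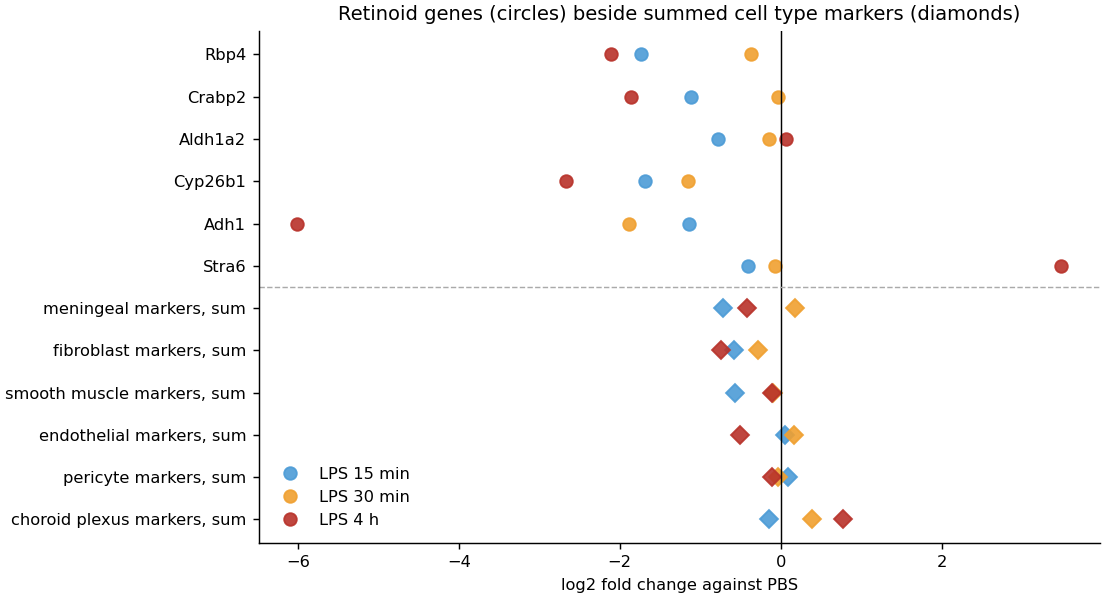
Log2 fold change against PBS of 6 retinoid genes (circles) and log2 change of the summed level of 6 lists of cell type markers (diamonds), with a colour for each time after LPS. At 15 min the meningeal, fibroblast and smooth muscle sums lay at -0.72, -0.58 and -0.57, and Rbp4 and Cyp26b1 at -1.74 and -1.68.

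For the 3 selected genes, the genes with the most similar course over the 12 libraries were sought among 12795 genes with a mean of at least 5 CPM, by Pearson's r of log2(CPM + 1). The 12 points share 4 groups, so r is a description. Nearest to Adh1 were Zic2 (r = 0.996), Alpl (0.995), Eif4ebp2 (0.995), Cldn5 (0.994) and Kdr (0.994). Cldn5, the main claudin of the endothelial barrier, was at means of 2362, 1420, 1269 and 475.3 CPM in the 4 groups, from PBS to 4 h, and Kdr, a VEGF receptor, at 351.6, 203.9, 176.4 and 77.4 CPM. Nearest to Rbp4 were Gjb6 (0.964), Col1a2 (0.959), Padi2 (0.959), Gid4 (0.958) and Fundc2 (0.952). Col1a2, a chain of type I collagen and one of the fibroblast markers, was at 170.7, 119.7, 151.9 and 105.4 CPM. From PBS to 4 h, Gjb6 went from 55.4 to 23.3 CPM and Padi2 from 15.1 to 4.83 CPM. Gid4 went from 47.8 to 40.8 CPM and Fundc2 from 26.9 to 21.5 CPM. Pearson's r does not measure the size of a change. Nearest to Cyp26b1 were Fbln5 (0.993), Rftn2 (0.989), Hist1h1c (0.987), 2310022B05Rik (0.986) and Cat (0.986). Fbln5, an elastic fibre protein, was at 268.1, 162.0, 187.5 and 127.8 CPM.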

How the data were processed

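RNA was measured in 12 libraries of mouse cerebral vessels, 3 per group, made with a full-length cDNA kit that does not mark strand. The authors quantified transcripts with Salmon 1.2.1 and deposited, for each library, estimated counts and TPM of every transcript, together with a table of gene values scaled by DESeq2 size factors, a normalized signal. The submitters' notes name the build GRCm38.p6. The columns of that gene table were matched to samples through the library number in each sample's own file, and the table served only as an alternative.

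Here, 139852 of 140948 transcripts were joined to GENCODE M21 genes (0.482% to 0.85% of fragments were not), and the estimated counts were summed per gene and rounded. Genes were filtered with edgeR 4.0.16 (filterByExpr, minimum count 10, minimum total 15), scaled by TMM and tested across all 12 libraries with glmQLFit and glmTreat against a 1.5-fold limit, with Benjamini-Hochberg adjustment over 19150 genes. SE is the log2 fold change divided by the root of the quasi-likelihood F. The calls were tested on simulated data, where 37 of 50 genes raised 2-fold, 50 of 50 raised 3-fold, 31 of 50 lowered 2-fold and 47 of 50 lowered 3-fold were called with 0 false calls. The unchanged genes were simulated with no difference at all, so false calls past the 1.5-fold limit were hardly possible. Genes of low counts were not among those changed, and few genes were changed. The simulation therefore does not cover scarce genes or the wide shift at 4 h. Replicates are pools of 2 mice, and p-values measure the spread between pools.

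The 9 genes, the gene lists and the markers were chosen with earlier results of these data known. Named were all 9 genes, the list genes called against PBS, the 5 most abundant of those not called (2 of which are not reported here), and for each selected gene the 5 most similar genes. Same-numbered libraries showed no strong shared deviation (largest correlation of deviations 0.068 over 18 pairs) and were fitted unpaired. This cannot show whether they were handled together. Alternatives were DESeq2 1.42.0, RLE factors, library size alone, no filter, no fold limit, a transcript length offset, a replicate block, limma 3.58.1 on log2(value + 1) of the gene table, and each library left out.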

Additional observations from a re-analysis of the deposited data

Results flagged for a closer look

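The groups of 3 libraries are too small for a test of single libraries. The results below are those in which the effect of LPS differed between 2 times, by the test of the difference itself in the fit across all genes. The 3 genes selected on their fall are left out. Values are log2 fold changes.

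From 15 min to 30 min, Crabp2 (1.07), Lrp2 (1.70) and Tgm2 (0.68) were higher. The Crabp2 and Tgm2 calls were lost with library size alone (adjusted p = 0.0862 and 1), and Crabp2 also with the length offset (0.0561), DESeq2 (0.163) and limma (0.413). From 30 min to 4 h, Stra6 (3.56), Rdh10 (1.73), Tgm2 (1.86), Nrip1 (1.53) and Rara (1.03) were higher. Over the same interval Crabp2 (-1.82), Rarb (-1.48), Aldh1a1 (-1.09), Rbp7 (-2.92), Adh5 (-0.78), Aldh1a3 (-2.22), Aldh1a7 (-3.30), Rarg (-1.71) and Rxra (-1.23) were lower. For this interval the Rara call was lost with library size alone (adjusted p = 0.917), and the Adh5 call with DESeq2 (0.0513) and limma (0.0726).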

How the results depend on the processing

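Without the fold limit, 7393 genes were called at 15 min against PBS, 7066 at 30 min and 13124 at 4 h, 7153 at 30 min against 15 min and 12498 at 4 h against 30 min. The genes called of the wider list were then 11, 11, 24, 13 and 24, and of the 9 genes 5 at 30 min against PBS and 8 at 30 min against 15 min. With library size alone, 10462 genes were called at 4 h against PBS (1907 higher and 8555 lower, where TMM gave 3636 and 2637) and 8848 at 4 h against 30 min. The wider list then gave 1, 19, 1 and 22 calls at 30 min and 4 h against PBS, 30 min against 15 min and 4 h against 30 min, and the 9 genes 1 call at 30 min against 15 min. Under this scaling Aldh1a2 turned to -0.63 at 4 h against PBS and to -0.32 against 30 min, because the median of all genes moved. With DESeq2, 529 genes were called at 15 min, 574 at 30 min against 15 min, 1 of the wider list at 30 min and 1 of the 9 genes at 30 min against 15 min. With limma on the gene table, 406, 531 and 443 genes were called at 15 min, at 30 min and at 30 min against 15 min, and 2 of the 9 genes at 15 min. At 30 min against 15 min, 0 of the 9 genes were called with limma or with the length offset, with 2 at an unadjusted p below 0.05 in each, where edgeR without the fold limit called 8. The causes were not tested. The share of Stra6-214 at 4 h was 45.1% of TPM, against 49.1% of fragments.

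With the replicate block, 7 of the 9 genes, the 3 selected genes included, were called at 4 h, the loss being Rarb (adjusted p = 0.0518). Whether the numbers pair the libraries was not established. Rarb at 4 h was also lost with no filter (0.0711), limma (0.0558) and DESeq2 (0.527). Aldh1a1 at 4 h was lost with the length offset (0.279), DESeq2 (0.348) and limma (0.654), Crabp2 at 15 min with DESeq2 (0.0715) and limma (0.308), and Aldh1a2 at 15 min with limma (0.0688). Leaving out each library in turn gave 1 to 2 calls among the 9 genes at 30 min against 15 min. It gave 4 to 5 at 15 min and 6 to 8 at 4 h, with the 3 selected genes included. It gave -0.0024 to 0.115 for Rdh10 at 15 min and -0.163 to 0.0431 for Crabp2 at 30 min, both uncalled. Stra6, Rdh10 and Crabp2 at 4 h kept their call in every alternative. Counts of 3 to 5 for Adh1 at 4 h limit the precision of its value there.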
